A study of Mus musculus with 12 samples.

Results

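The mitochondrial carrier family, whose genes are named Slc25a with a number, was followed across the 4 sorted sub-populations of ML23, a mouse acute myeloid leukemia line. Its members were taken as every protein-coding gene of the expression table whose symbol is Slc25a followed by digits, a rule that uses no measured value. This gave 42 genes out of 20202, of which 13730 are protein-coding. Of the 42, 40 reached 1 CPM (alignments of a gene scaled to a common library total) in at least 3 libraries and were tested, among 13450 genes tested in all. The other two were Slc25a2, at 0 to 1.10 CPM, and Slc25a34, at 0 to 0.289 CPM and at 0 in the 3 P9 libraries. The related genes Slc25a21, Slc25a31, Slc25a41, Slc25a48 and Slc25a54 were not analysed here.

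Mitochondrial carriers are small proteins of the inner mitochondrial membrane that move metabolites between the cytosol and the matrix. Each carries a narrow set of substrates, such as ADP for ATP, phosphate, citrate, aspartate for glutamate, amino acids, cofactors or iron, and so couples respiration and biosynthesis in the matrix to the rest of the cell. Those of the inner membrane are encoded in the nucleus, made in the cytosol and inserted by the TOM, small TIM and TIM22 import machinery, while a few members of the family lie elsewhere. In blood-forming tissue the family is best known for the iron carrier mitoferrin-1 (Slc25a37) and the glycine carrier Slc25a38, both of which serve heme synthesis.

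The ML23 line arose from cells of transgenic rtTA mice that were transformed with lentiviruses carrying oncogenic factors (Meis1, HoxA9 and HoxB5 by the study's methods), and it was passaged in C57BL/6 mice. All 4 groups therefore share the transgene, the oncogenic factors and the ZsGreen reporter by which leukemic cells were gated, and the line stands for 1 leukemia. P11 was sorted as CD9- cKit+ Mac1- CD48+, and is the sub-population that the study took as leukemia stem cells because it passed the disease on. P9 was CD9+ cKit+ Mac1+ CD48-, P10 was CD9- cKit+ Mac1+ CD48+, and P12 was CD9- cKit- Mac1- CD48+. Each group had 3 libraries of 100 sorted bone marrow cells. The cells came from 3 diseased mice and were sorted into the 4 sub-populations, by the study's account. The age of the mice was not given in the sources used here. Libraries of different groups can thus share a mouse, but the labels do not say which, so p-values measure the spread between these libraries, which may in part be technical.

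By an estimate from the spacing of low values, the libraries held 13431000 to 21293000 alignments (median 17834500). On that estimate 1 CPM stood for at least 13.4 alignments, and carriers at a few CPM rest on few reads. The study's methods give a lower range of reads per sample, and this difference was not resolved. Of the sorted proteins, Cd9, Cd48 and the Mac1 chain Itgam had mRNA that followed the gates on average. Cd9 averaged 1.44 ± 0.220 CPM in P11, 259 ± 39.2 CPM in P9, 3.77 ± 4.06 CPM in P10 and 2.34 ± 1.17 CPM in P12 (SD, n = 3 each). Cd48 averaged 3.94 CPM in P9, which was sorted as CD48-, against 73.2 CPM in P11, 98.8 CPM in P10 and 81.5 CPM in P12. Itgam averaged 2673 CPM in P9 and 1184 CPM in P10, against 147 CPM in P11 and 269 CPM in P12. Kit mRNA did not follow them throughout: it averaged 63.2 ± 23.2 CPM in P11, 54.5 ± 10.9 CPM in P9, 12.7 ± 7.64 CPM in P10, which was sorted as cKit+, and 5.19 ± 0.664 CPM in P12, and was higher in P11 than in P10 (log2 fold change 2.36, adjusted p = 0.00022). Kit was also higher in P10 than in P12 by limma (log2 fold change 1.07, adjusted p = 0.032), which is the direction of the gates. The source label calls the cells hematopoietic stem cells, whereas 10 genes of neutrophil maturation (Ltf, Camp, Ngp, Lcn2, S100a8 and others) summed to 114917 to 128900.5 CPM in P9, against 275 to 809.7 CPM in P11, 1763 to 12343 CPM in P10 and 412 to 478 CPM in P12. The highest P10 value belonged to replicate 3. Monocyte and macrophage genes summed to 655 to 792 CPM in P11, 70.5 to 90.9 CPM in P9, 1995 to 2016 CPM in P10 and 925 to 1578 CPM in P12, the highest P12 value being replicate 3. That library also held 538 CPM of Itgam, which encodes the alpha chain of Mac1 and so a protein that the P12 gate excludes, against 139 and 130.0 CPM in P12 replicates 1 and 2. Between P11 and P12 the neutrophil sums overlapped and 0 of the 10 genes were called by limma. In every other comparison below, both sums differ between the groups, and their part in the results was not tested. In bulk libraries, fewer cells of a type and less RNA per cell cannot be told apart.

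As deposited, the carriers as a family were lowest in P9. The 42 carriers summed to 1614 to 1898 CPM in P11, 969 to 1083 CPM in P9, 1369 to 1534 CPM in P10 and 1439 to 1582 CPM in P12, so P9 and P11 each stood apart from the other 3 groups. This rests on the scaling of the libraries: rescaled to a common median ratio, the sums were 1450.5 to 1654 in P11, 1267 to 1373 in P9, 1317 to 1520.1 in P10 and 1274 to 1439 in P12, so that P9 overlapped P10 and P12, and P11 overlapped P10. The P9 libraries lay below all 9 other libraries for 26 of the 40 tested carriers, which held for 45.9% of all genes tested. They lay above all others for 4 carriers (Slc25a20, Slc25a24, Slc25a29 and Slc25a37), against 11.7% of all genes. The P11 libraries lay above all others for 8 carriers, against 12.8% of all genes, and below all others for Slc25a24 alone, against 1.63%. After rescaling, P9 lay below all others for 20 carriers (32.7% of all genes) and above for 5 (18.4%), and P11 lay above all others for 1 (8.74%) and below for 1 (3.31%), so statements below that P11 lies above all other libraries hold for the deposited scaling. By group means, P11 was highest for 23 carriers, P9 for 6, P10 for 6 and P12 for 5, while P9 was lowest for 32, P11 for 2, P10 for 2 and P12 for 4. Of all genes tested, P11 was highest for 46.2% and P9 lowest for 66.5%, so these counts follow the table as a whole.

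**Figure D1:**
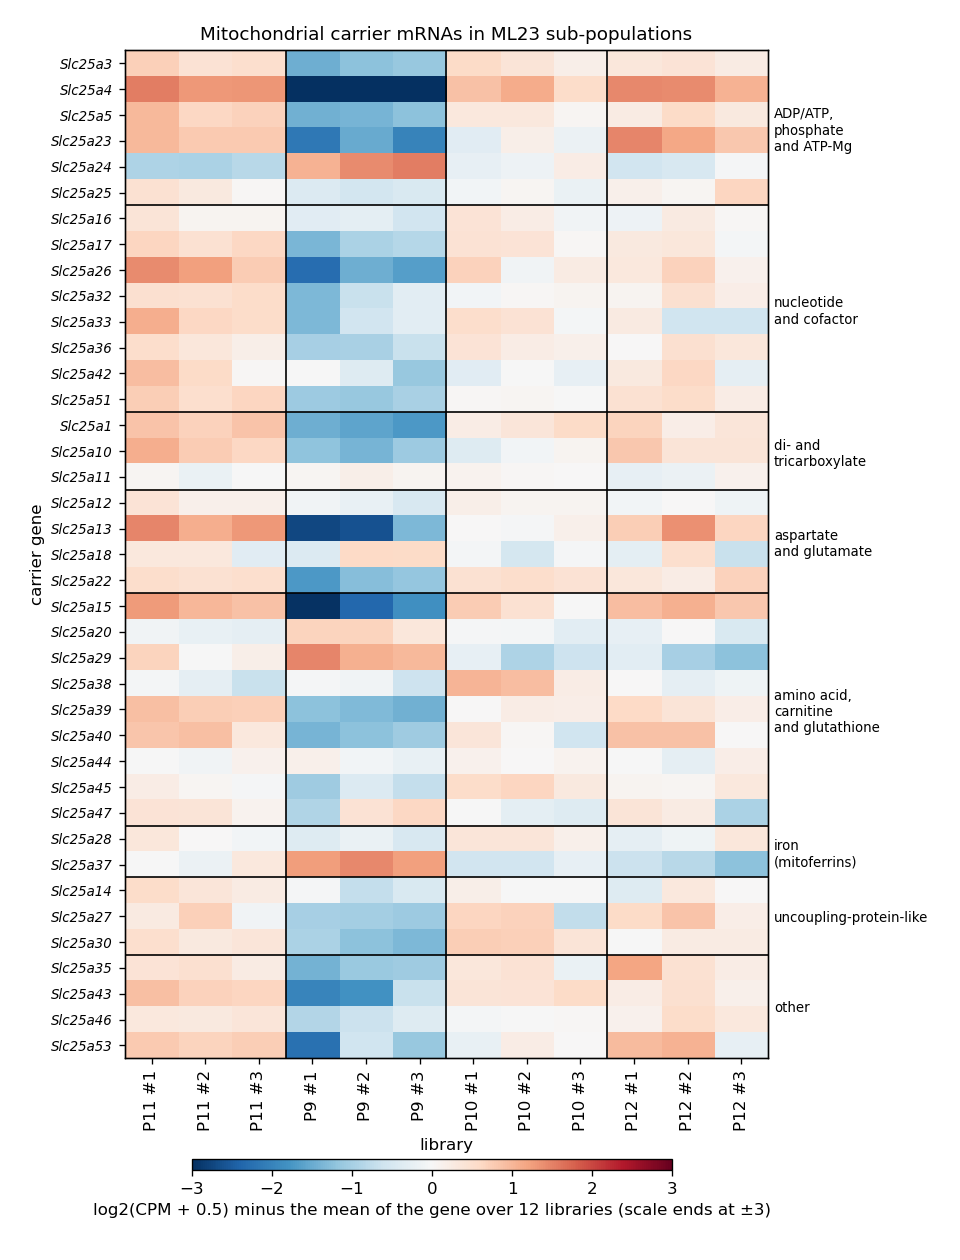
Each row is a tested carrier and each column 1 of the 12 libraries (3 each of P11, P9, P10 and P12). The color gives log2(CPM + 0.5) minus the mean of that gene over the 12 libraries, from -3 (blue) to 3 (red), and rows are grouped by the substrate of the carrier. Most rows are blue in the 3 P9 libraries, while Slc25a24, Slc25a37, Slc25a29 and Slc25a20 are red there.

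Genes were called where the adjusted p was under 0.1 and the difference more than 2-fold, the study's thresholds. These thresholds were applied to a limma fit, whereas the study used DESeq2 and reports far fewer genes past them. P11 was first set against the average of P9, P10 and P12, the contrast by which the study sought genes particular to its leukemia stem cells. Of the 40 carriers 11 were called, 10 higher and 1 lower in P11, and 25.1% of all genes tested were called in that comparison (19.9% higher and 5.20% lower), so the carriers' share was near the background. With the fold taken from mean CPM, 3 carriers were called, against 18.0% of all genes. The 10 higher carriers were Slc25a1, Slc25a4, Slc25a5, Slc25a10, Slc25a13, Slc25a15, Slc25a23, Slc25a26, Slc25a33 and Slc25a39, and the lower one was Slc25a24. The median carrier had a log2 fold change of 0.59, against 0.40 over all genes. When libraries were rescaled to a common median ratio, 5 carriers were higher and 1 lower, where 20.3% of all genes were called, with medians of 0.37 over carriers and 0.19 over all genes. Without P11 replicate 1, 7 carriers were called, against 24.7% of all genes.

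Set against each sub-population in turn, P11 differed from P9 far more than from P10 or P12. In P11 against P9, 24 carriers were higher and 2 lower, where 46.8% of all genes were higher and 11.2% lower (57.9% called in either direction). The median carrier had a log2 fold change of 1.41 and the median of all genes was 0.90. The table as a whole was thus shifted in this comparison. After rescaling the median of all genes was 0.45 and that of the carriers 0.99. Then 20 carriers were higher and 4 lower, where 33.8% of all genes were higher and 16.9% lower. The added lower ones were Slc25a20 and Slc25a29. Against P10 only Slc25a13 was higher and Slc25a38 lower, where 12.8% of all genes were higher and 7.52% lower (20.4% in all), so fewer carriers than the background passed. Against P12 no carrier was called, with or without P12 replicate 3, where 0.0223% of all genes were called. With the replicate number as a block, 1 carrier (Slc25a29) and 0.885% of all genes were called. By limma without adjustment, 10 of the 40 carriers and 1860 of all genes had a p under 0.05 in P11 against P12. P9 set against P10 had 3 carriers higher and 23 lower, where 8.33% of all genes were higher and 34.1% lower (42.4% in all). The lower ones fell to 15 after rescaling, where 24.8% of all genes were lower. With a pseudocount of 2 they fell to 16, where 19 carriers and 32.0% of all genes were called in either direction. P9 set against P12 had 3 higher and 22 lower, where 11.1% were higher and 43.2% lower (54.3% in all). P10 against P12 differed in 1 carrier, Slc25a23, which was lower in P10, where 6.25% of all genes were lower and 5.83% higher (12.1% in all). Without P10 replicate 3, or without P12 replicate 3, 2 carriers were called there, against 12.7% and 16.8% of all genes. Of the 40 carriers, 29 were called in at least 1 of the 7 comparisons and 23 in all 3 that set P9 against a single other sub-population, against 66.5% and 36.0% of all genes tested. The comparisons share libraries and are not independent of each other.

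**Figure D2:**
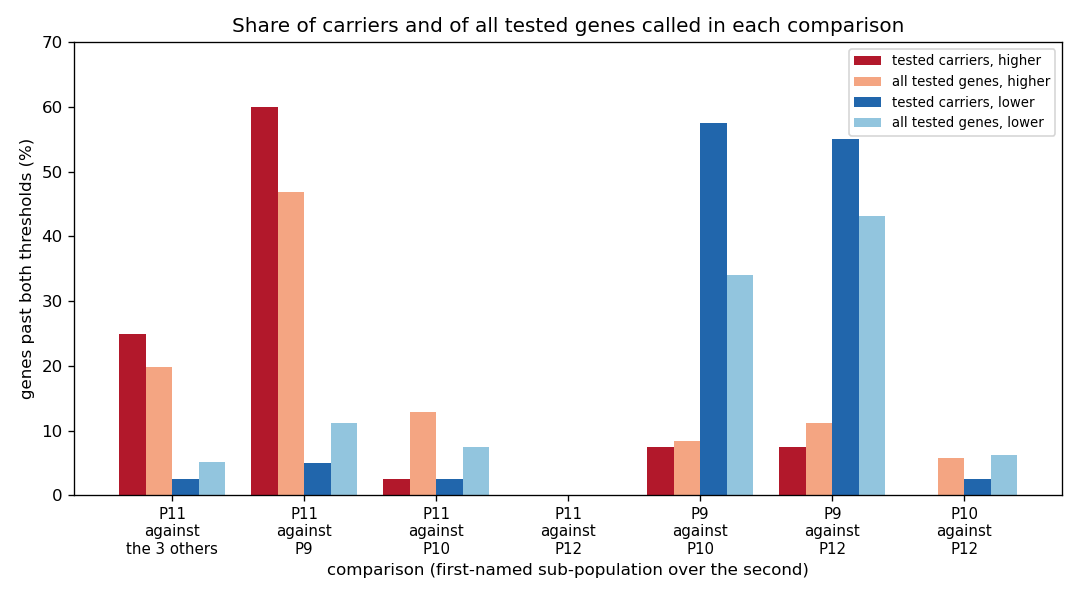
Bars give the percent of genes past both thresholds in each of the 7 comparisons, with the 40 tested carriers (dark) beside all 13450 genes tested (light), and higher (red) apart from lower (blue) in the first-named sub-population. The tall bars are those of the comparisons with P9, where 60.0% of carriers were higher in P11 than in P9, against 46.8% of all genes.

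The adenine nucleotide translocases exchange cytosolic ADP for ATP made in the matrix, and they gave the largest difference of the family. Slc25a4 (ANT1, chromosome 8) had 76.7, 64.5 and 65.5 CPM in P11, 2.05, 1.21 and 2.24 CPM in P9, 48.5, 56.4 and 38.3 CPM in P10, and 71.7, 70.3 and 54.4 CPM in P12. The P9 libraries were far below all others, and the other 3 groups lay close together with P10 lowest. The log2 fold change was 4.92 (SE 0.20, adjusted p = 1.1e-09) in P11 against P9, -4.38 (SE 0.20, adjusted p = 3.5e-09) in P9 against P10 and -4.84 (SE 0.20, adjusted p = 1.3e-09) in P9 against P12. Against P10 and P12 the P11 differences of 0.54 and 0.08 were not called.

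Slc25a5 (ANT2, chromosome X) is the paralog of Slc25a4 associated with dividing cells, and per kilobase of transcript it was the most abundant carrier in every sub-population. It had 420.3, 330.1 and 346 CPM in P11, 79.6, 82.0 and 91.3 CPM in P9, 269.7, 269 and 224 CPM in P10, and 255, 320.2 and 262 CPM in P12. The P11 libraries were above all others, the P9 libraries below all others, and P10 and P12 overlapped. The difference was 2.10 (log2, SE 0.14, adjusted p = 2.3e-08) in P11 against P9, 0.52 against P10 and 0.39 against P12, and only the first was called. Against the mean of the 3 others it was 1.00 (SE 0.11, adjusted p = 1.4e-05), at the 2-fold threshold, and it was no longer called at 0.90 without P11 replicate 1, at 0.97 to 1.00 without P9 replicate 1 or 2, P10 replicate 3, or P12 replicate 1 or 3, or at 0.77 after rescaling. Per kilobase of transcript Slc25a5 stood at 295 CPM in P11, 68.0 CPM in P9, 205 CPM in P10 and 225 CPM in P12, against 35.8, 0.953, 24.8 and 34.0 CPM for Slc25a4 in the same order of groups.

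The log2 ratio of Slc25a5 to Slc25a4 was 2.35 to 2.45 in P11, 4.97 to 5.59 in P9, 2.24 to 2.53 in P10 and 1.82 to 2.26 in P12. P9 did not overlap the other groups, so the fall of the 2 translocases in P9 was unequal. Apart from the pseudocount, a ratio within a library does not depend on how libraries are scaled. The transcripts were 78.0% identical over 905 bases. Pseudogenes of Slc25a5 are closer: Gm5560 (98.3% at its longest match, covering 71.5% of the transcript) reached at most 1.99 CPM, and Gm5529 (96.8%, 72.3%) was not among the values used here, so that reads shared with such copies could be assigned either way. The 250 bases before the RefSeq start of Slc25a5 (GRCm38.p6, chrX:36795347-36795596, plus strand) are shown because this carrier ranked first per kilobase, and capitals mark CTTATCT, the reverse complement of the GATA-type word AGATAAG. It was the sole carrier promoter with that word, out of 32 with a RefSeq promoter.
Slc25a5: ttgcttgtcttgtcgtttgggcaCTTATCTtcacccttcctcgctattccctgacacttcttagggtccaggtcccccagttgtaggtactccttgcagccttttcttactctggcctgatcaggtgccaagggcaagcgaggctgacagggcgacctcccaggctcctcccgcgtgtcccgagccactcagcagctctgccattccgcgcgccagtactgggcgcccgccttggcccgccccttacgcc

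**Figure D3:**
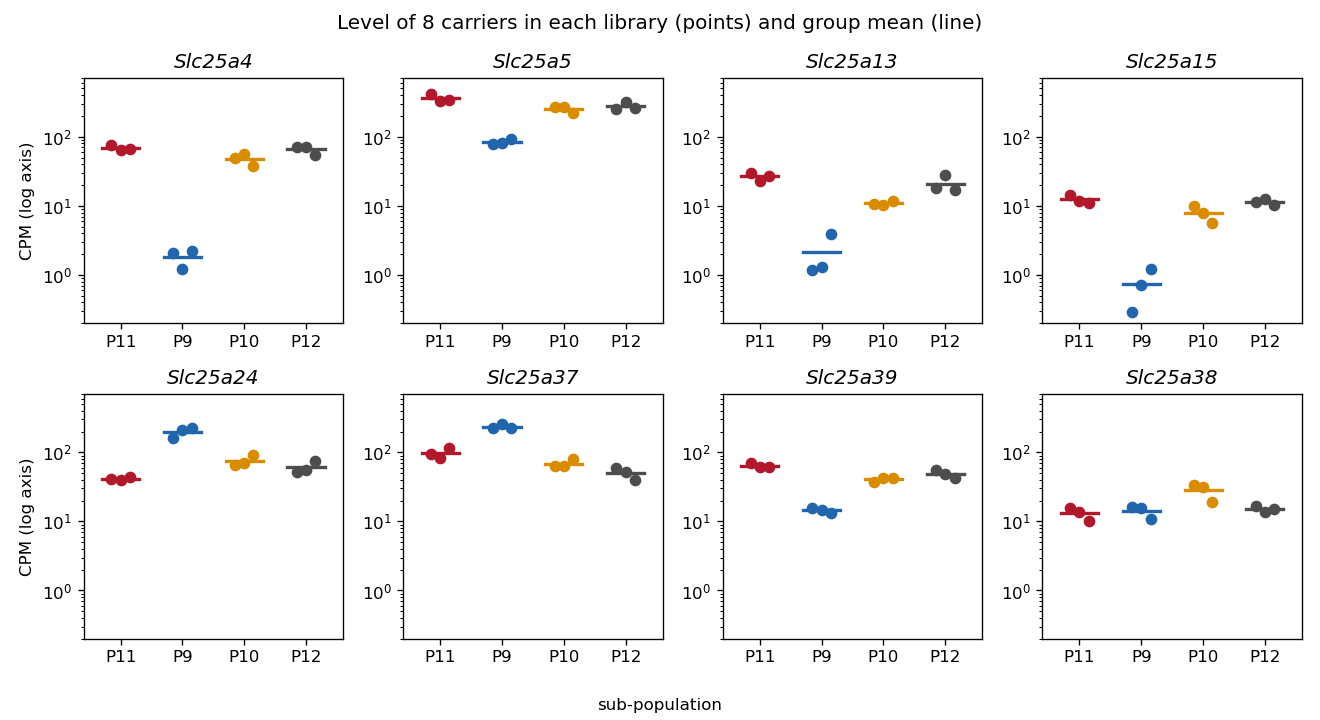
Points give CPM (log axis) in each library and lines the group mean, for 8 carriers in P11, P9, P10 and P12. Slc25a4, Slc25a13 and Slc25a15 fall to between 0.293 and 3.87 CPM in P9, Slc25a24 and Slc25a37 are highest there, and Slc25a38 is highest in P10.

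Slc25a3, the phosphate carrier that feeds ATP synthase, had 306, 249.8 and 265 CPM in P11, 67.3, 78.8 and 84.8 CPM in P9, 278, 244 and 211 CPM in P10, and 237, 247 and 222 CPM in P12. P9 was below all other libraries and P11, P10 and P12 overlapped. The difference was 1.82 (log2, SE 0.13, adjusted p = 6.9e-08) in P11 against P9.

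The calcium-regulated ATP-Mg/phosphate carriers Slc25a23, Slc25a24 and Slc25a25, which adjust the adenine nucleotide content of the matrix, did not move together. Slc25a24 had 40.7, 40.0 and 43.3 CPM in P11, 161, 208 and 226 CPM in P9, 65.9, 69.7 and 91.2 CPM in P10, and 52.2, 55.9 and 76.2 CPM in P12. It ran opposite to most of the family, with every P11 library below and every P9 library above all others, and with P10 and P12 overlapping. It was the only carrier called lower in P11 against the mean of the 3 others (log2 fold change -1.21, SE 0.14, adjusted p = 2.1e-05). In P11 against P9 the difference was -2.23 (SE 0.17, adjusted p = 1.2e-07), and the -0.85 against P10 and -0.55 against P12 were not called. Slc25a23 was at 3.32 to 3.87 CPM in P11, 0 to 0.275 CPM in P9, 1.26 to 2.02 CPM in P10 and 3.41 to 5.58 CPM in P12, and was called lower in P9 and also lower in P10 than in P12. Its P9 values are so few alignments that the fitted fold depends on the pseudocount, and it overlaps Crb3 on the opposite strand. Slc25a25, at 8.53 to 11.6 CPM in P11, 5.47 to 6.08 CPM in P9, 7.19 to 8.62 CPM in P10 and 8.68 to 13.2 CPM in P12, was not called in any comparison. The log2 ratio of Slc25a24 to Slc25a23 was 3.24 to 3.51 in P11, 8.07 to 8.67 in P9, 4.80 to 5.55 in P10 and 3.11 to 4.29 in P12. The 250 bases before the start of Slc25a24 (RefSeq, GRCm38.p6, chr3:109122899-109123148, plus strand) are shown because it ran against the family, and they held none of the 7 words that were searched.
Slc25a24: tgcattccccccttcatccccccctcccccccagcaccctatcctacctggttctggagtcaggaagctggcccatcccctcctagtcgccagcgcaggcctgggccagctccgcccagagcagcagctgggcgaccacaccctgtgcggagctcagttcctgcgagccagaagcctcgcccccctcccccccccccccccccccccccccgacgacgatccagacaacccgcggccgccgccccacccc

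Mitoferrins bring iron into the matrix for heme and iron-sulfur clusters, and the 2 of them diverged. Slc25a37 (mitoferrin-1, the form of erythroid cells) had 93.2, 83.0 and 117 CPM in P11, 223, 257 and 222 CPM in P9, 62.6, 62.8 and 79.4 CPM in P10, and 60.0, 52.5 and 39.9 CPM in P12. The order P9, P11, P10, P12 held without overlap of any group. The differences were -1.26 (log2, SE 0.17, adjusted p = 1.7e-05) in P11 against P9, 1.77 (adjusted p = 1.5e-06) in P9 against P10 and 2.21 (SE 0.17, adjusted p = 1.4e-07) in P9 against P12, while the 0.51 against P10 and 0.94 against P12 in P11 were not called. Slc25a28 (mitoferrin-2) was at 18.7 to 25.1 CPM in P11, 14.0 to 17.3 CPM in P9, 22.1 to 25.9 CPM in P10 and 16.3 to 25.3 CPM in P12, and was not called. The log2 ratio of Slc25a37 to Slc25a28 was 1.87 to 2.61 in P11, 3.84 to 3.94 in P9, 1.26 to 1.82 in P10 and 0.65 to 1.85 in P12. The erythroid genes summed to 49.0 to 63.6 CPM in P11, 92.7 to 228 CPM in P9, 86.7 to 112 CPM in P10 and 66.4 to 67.7 CPM in P12, of which the globins were most, while the defining genes Epor and Klf1 averaged at most 0.451 CPM in any group. The predicted gene Gm16867 is identical to Slc25a37 over 382 bases (9.2% of the transcript) and reached at most 10.9 CPM.

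The aspartate/glutamate carriers of the malate-aspartate shuttle, which passes reducing power of cytosolic NADH into the matrix, diverged too, with the opposite direction in P9. Slc25a13 (citrin) had 30.2, 23.1 and 26.8 CPM in P11, 1.17, 1.32 and 3.87 CPM in P9, 10.7, 10.4 and 11.9 CPM in P10, and 18.0, 28.2 and 16.8 CPM in P12. P9 was lowest, P10 next, and P11 and P12 overlapped. The difference was 3.51 (log2, SE 0.32, adjusted p = 4.9e-07) in P11 against P9, and 1.24 (SE 0.32, adjusted p = 0.0083) against P10, which made it the single carrier called higher in P11 than in P10. Slc25a12 (aralar), 72.6% identical over 1830 bases, was at 47.4 to 56.8 CPM in P11, 30.6 to 39.8 CPM in P9, 45.1 to 48.6 CPM in P10 and 39.0 to 43.3 CPM in P12, and was not called. The log2 ratio of Slc25a13 to Slc25a12 was -1.03 to -0.81 in P11, -4.59 to -2.83 in P9, -2.13 to -1.88 in P10 and -1.19 to -0.61 in P12. The 250 bases before the start of Slc25a13 (RefSeq, GRCm38.p6, chr6:6217174-6217423, minus strand, printed in the direction of transcription) are shown because it separated P11 from P10, with capitals on CACGTG, 125 bases before the end of the window, and on CCAAT, 22 bases before it.
Slc25a13: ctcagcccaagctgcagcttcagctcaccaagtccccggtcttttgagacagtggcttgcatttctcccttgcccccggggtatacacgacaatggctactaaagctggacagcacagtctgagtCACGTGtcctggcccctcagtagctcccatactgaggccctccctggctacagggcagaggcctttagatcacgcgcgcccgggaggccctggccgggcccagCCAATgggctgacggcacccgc

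Of the glutamate carriers, Slc25a22 had 27.2, 25.9 and 27.1 CPM in P11, 5.35, 7.54 and 8.14 CPM in P9, 26.0, 27.3 and 25.7 CPM in P10, and 24.0, 22.0 and 30.8 CPM in P12. Only P9 stood apart (1.88 in P11 against P9, log2, SE 0.18, adjusted p = 6.3e-07). Its paralog Slc25a18 stayed at or under 1.38 CPM in every library and was not called.

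**Figure D4:**
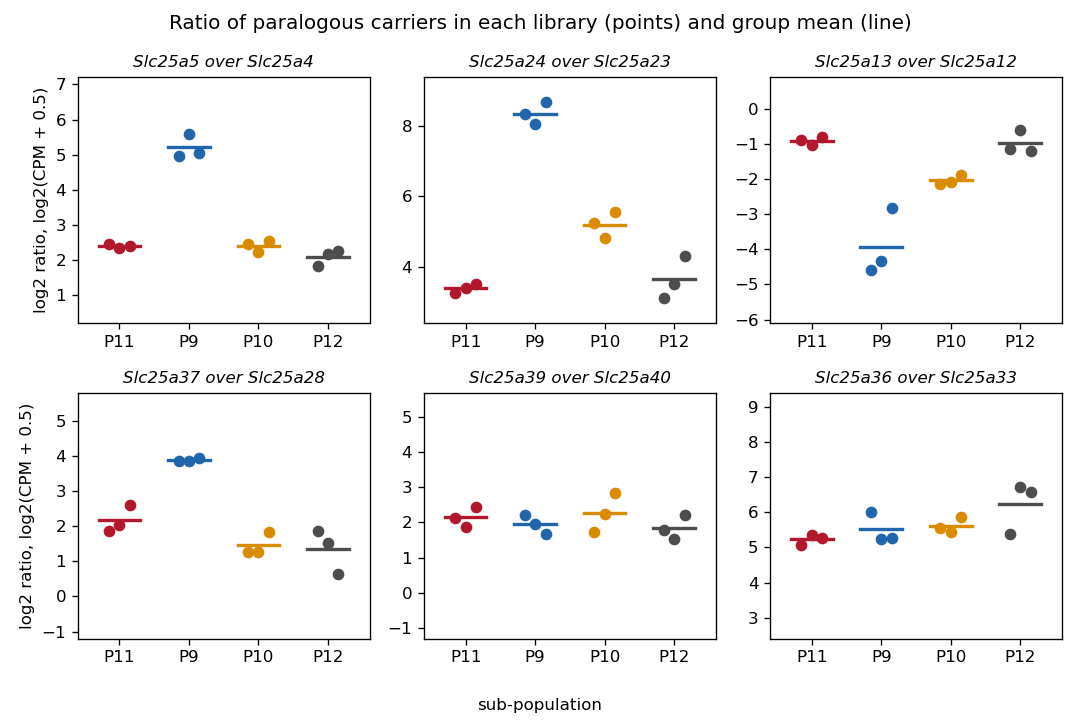
Points give the difference in log2(CPM + 0.5) between 2 related carriers in each library and lines the group mean, in P11, P9, P10 and P12, with axes of equal length. In the first 4 pairs P9 stands apart from the other groups (4.97 to 5.59 for Slc25a5 over Slc25a4), and in the last 2 pairs P9 overlaps the other groups.

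Carriers of citrate and dicarboxylates link the citric acid cycle to the cytosol. Slc25a1, the citrate carrier that exports citrate for fatty acid and sterol synthesis, had 26.3, 23.6 and 26.4 CPM in P11, 4.91, 4.51 and 4.04 CPM in P9, 16.8, 18.6 and 21.7 CPM in P10, and 23.2, 16.7 and 18.7 CPM in P12. P11 was above and P9 below all others, with 2.38 (log2, SE 0.17, adjusted p = 6.6e-08) in P11 against P9 and 1.06 (adjusted p = 5.1e-05) against the mean of the 3 others, the second no longer called after rescaling (0.84). Slc25a10, the dicarboxylate carrier, had 26.2, 20.5 and 18.6 CPM in P11, 4.91, 4.24 and 5.33 CPM in P9, 9.04, 11.2 and 12.7 CPM in P10, and 21.4, 15.9 and 15.9 CPM in P12. P9 was lowest, P10 next, and P11 and P12 overlapped. It differed by 2.05 (log2, SE 0.20, adjusted p = 9.8e-07) in P11 against P9 and by 0.95 against P10, short of 2-fold. Slc25a11, which exchanges oxoglutarate for malate in the malate-aspartate shuttle, was at 58.4 to 69.4 CPM in P11, 70.2 to 75.6 CPM in P9, 67.4 to 72.2 CPM in P10 and 56.3 to 72.7 CPM in P12. Its differences were between -0.16 and 0.21 on the log2 scale in the 7 comparisons, with SEs of at most 0.12, and none was called.

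Among the carriers of amino acids and related compounds, the ornithine carrier Slc25a15 had 14.5, 11.8 and 10.9 CPM in P11, 0.293, 0.715 and 1.23 CPM in P9, 9.97, 7.93 and 5.60 CPM in P10, and 11.3, 12.5 and 10.4 CPM in P12. P9 was far below the rest, where P11 and P12 overlapped and P10 lay below both. The log2 fold change was 3.43 (SE 0.29, adjusted p = 2.6e-07) in P11 against P9, and the 0.66 against P10 and 0.11 against P12 were not called. Its paralog Slc25a2 was too low to test.

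Slc25a39 and Slc25a40 bring glutathione into the matrix. Slc25a39 had 69.6, 61.9 and 60.8 CPM in P11, 15.5, 14.5 and 13.2 CPM in P9, 37.3, 43.0 and 42.5 CPM in P10, and 56.0, 47.9 and 42.1 CPM in P12. P11 was above and P9 below all other libraries, and P10 and P12 overlapped. It differed by 2.12 (log2, SE 0.14, adjusted p = 2.3e-08) in P11 against P9 and by 0.64 and 0.40 against P10 and P12, which were not called. Slc25a40 had 15.6, 16.4 and 10.7 CPM in P11, 2.93, 3.36 and 3.82 CPM in P9, 11, 8.78 and 5.48 CPM in P10, and 16.0, 16.1 and 8.62 CPM in P12. Here P9 alone stood apart (1.91, SE 0.30, adjusted p = 6e-05, in P11 against P9). The log2 ratio of Slc25a39 to Slc25a40 overlapped between the groups, at 1.88 to 2.45 in P11, 1.67 to 2.22 in P9, 1.72 to 2.84 in P10 and 1.54 to 2.22 in P12. The pseudogene Gm5066 matches 25.9% of the Slc25a40 transcript at 96.3% identity and was not among the values used here.

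Slc25a38 brings glycine into the matrix for the first step of heme synthesis. It was the only carrier in which P10 lay above all other libraries as deposited, against 5.49% of all genes tested. After rescaling, 2 carriers had that pattern, against 5.73% of all genes. Slc25a38 had 15.9, 13.7 and 10.3 CPM in P11, 16.3, 15.4 and 10.7 CPM in P9, 34.0, 31.8 and 19.4 CPM in P10, and 16.8, 13.7 and 15.1 CPM in P12. P11, P9 and P12 overlapped, and P10 replicate 3 was nearest to them. In P11 against P10 it was lower by 1.05 on the log2 scale (a fold change of -1.05, SE 0.24, adjusted p = 0.004). This was close to the 2-fold threshold and was no longer called without P10 replicate 1 (-0.90), P10 replicate 2 (-0.95) or P11 replicate 3 (-0.88), or with a pseudocount of 2 (-0.97). Between P9 and P10 it was -0.97 and between P10 and P12 0.84, both short of 2-fold.

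Slc25a45 had 52.5, 47.1 and 43.8 CPM in P11, 21.2, 33.7 and 27.0 CPM in P9, 66.5, 70.3 and 55.5 CPM in P10, and 47.6, 46.7 and 56.3 CPM in P12. It was called only in P9 against P10 (-1.23, SE 0.17, adjusted p = 3e-05), and not after rescaling (-0.87). The carnitine-acylcarnitine carrier Slc25a20, through which fatty acids enter the matrix to be oxidized, was at 17.1 to 19.4 CPM in P11, 26.6 to 33.5 CPM in P9, 16.7 to 20.1 CPM in P10 and 15.0 to 20.8 CPM in P12. P9 was above all other libraries by less than 2-fold (a log2 difference of -0.76 in P11 against P9, SE 0.16, adjusted p = 0.00087), and after rescaling it was called higher in P9 against each other sub-population.

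The basic amino acid carrier Slc25a29 was likewise highest in P9, at 2.42 to 4.14 CPM in P11, 5.28 to 7.55 CPM in P9, 1.03 to 1.97 CPM in P10 and 0.752 to 1.86 CPM in P12. It was called in P9 against P10 and in P9 against P12. In P11 it was also above P10 and P12 (log2 fold changes of 0.88 and 1.12, adjusted p = 0.039 and 0.18), without a call. With the replicate number as a block, the difference from P12 was called (1.12, SE 0.24, adjusted p = 0.065). In the annotation of the table its start lies 162 bases from that of Slc25a47, head to head on chromosome 12. The RefSeq start of Slc25a47 lies 15083 bases further on. Slc25a47 was at most 2.19 CPM and was not called. Slc25a44, a carrier of branched-chain amino acids, was flat at 32.3 to 37.8 CPM in P11, 29.7 to 38.5 CPM in P9, 35.3 to 38.0 CPM in P10 and 28.8 to 40.2 CPM in P12.

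Of 9 tested carriers of nucleotides and cofactors, 8 were higher and none lower in P11 than in P9, where 46.8% of all genes were higher, the exception being Slc25a16. Slc25a51, through which NAD+ enters mitochondria, had 116, 97.0 and 108 CPM in P11, 32.3, 31.1 and 34.6 CPM in P9, 70.5, 71.4 and 68.4 CPM in P10, and 93.9, 101 and 80.5 CPM in P12. P9 was lowest, P10 next, and P11 overlapped P12 (1.69 in P11 against P9, log2, SE 0.12, adjusted p = 4.3e-08). Slc25a36, a carrier of pyrimidine nucleotides, had 104, 91.6 and 82.2 CPM in P11, 36.1, 36.8 and 45.2 CPM in P9, 96.8, 84.2 and 80.8 CPM in P10, and 73.3, 101 and 92.2 CPM in P12. Only P9 stood apart, and its calls rest on the scaling of the libraries: the log2 differences were 1.22 in P11 against P9, -1.14 in P9 against P10 and -1.16 in P9 against P12 as deposited, and 0.72, -0.78 and -0.71 after rescaling, none of them then called.

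Slc25a17, a carrier of coenzyme A and related cofactors that lies in the peroxisome rather than the mitochondrion, had 35.5, 31.2 and 34.8 CPM in P11, 8.42, 11.4 and 12.1 CPM in P9, 30.6, 29.8 and 23.1 CPM in P10, and 27.7, 28.4 and 21.4 CPM in P12. P11 was above and P9 below all other libraries (1.64 in P11 against P9, SE 0.18, adjusted p = 2.5e-06). Slc25a32, the folate carrier, had 22.1, 21.6 and 23.1 CPM in P11, 5.86, 9.57 and 12.5 CPM in P9, 14.8, 16.0 and 16.5 CPM in P10, and 16.4, 22.0 and 18.1 CPM in P12. It was called in P11 against P9 (1.27, SE 0.23, adjusted p = 0.00019), a call lost at 0.99 without P9 replicate 1 and at 0.79 after rescaling.

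Low members of that group were also called, on few reads. Slc25a26, which imports S-adenosylmethionine for methylation in the matrix, was at 3.65 to 6.01 CPM in P11, 0 to 0.385 CPM in P9, 1.78 to 3.45 CPM in P10 and 2.19 to 3.42 CPM in P12, with P11 above and P9 below all others. Slc25a33 was at 1.63 to 2.60 CPM in P11, 0.0733 to 0.673 CPM in P9, 0.886 to 1.59 CPM in P10 and 0.458 to 1.26 CPM in P12. Slc25a42, a coenzyme A carrier, was at 3.78 to 7.46 CPM in P11, 1.40 to 3.66 CPM in P9, 2.80 to 3.66 CPM in P10 and 2.95 to 5.96 CPM in P12, so that the P11 and P9 ranges nearly met.

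Of the 3 carriers related to uncoupling proteins, 2 were higher in P11 than in P9, where 46.8% of all genes were higher. Slc25a30 had 33.6, 28.8 and 30.3 CPM in P11, 11.8, 9.74 and 8.81 CPM in P9, 39.6, 39.0 and 30.8 CPM in P10, and 23.3, 28 and 27.8 CPM in P12. P9 was below all others (1.57 in P11 against P9, SE 0.16, adjusted p = 1.2e-06) and P10 had the highest mean, without a call. Slc25a27 (4.77 to 8.89 CPM in P11, 2.19 to 2.34 CPM in P9, 2.91 to 8.64 CPM in P10 and 6.08 to 9.74 CPM in P12) was also called lower in P9, and Slc25a14, at or under 4.42 CPM in every library, was not called. Of carriers with no settled substrate, Slc25a35 had 11.3, 12.0 and 9.98 CPM in P11, 2.84, 3.63 and 3.74 CPM in P9, 10.8, 11.6 and 7.28 CPM in P10, and 19.7, 11.8 and 9.89 CPM in P12. P9 was below all others (1.58 in P11 against P9, SE 0.26, adjusted p = 0.00011). It overlaps Rangrf on the opposite strand over 1882 bases, and Rangrf averaged 7.47 CPM in P11, 0.0826 CPM in P9, 1.84 CPM in P10 and 3.16 CPM in P12. The use of strand in the counting is not settled by the sources, so reads of these genes cannot be told apart. Of the carriers named here, Slc25a10, Slc25a11, Slc25a12, Slc25a18, Slc25a23, Slc25a25, Slc25a26, Slc25a33, Slc25a36, Slc25a37, Slc25a46 and Slc25a53 likewise overlap a gene on the opposite strand. For Slc25a36 it is Gm16185, over 3285 bases. Gm16185 averaged 15.9 CPM in P11, 4.58 CPM in P9, 16.7 CPM in P10 and 17 CPM in P12. For Slc25a11 it is Rnf167, over 245 bases. Rnf167 averaged 48 CPM in P11, 114 CPM in P9, 50.2 CPM in P10 and 50.6 CPM in P12. For Slc25a18 it is Atp6v1e1, over 32 bases. Atp6v1e1 averaged 71.3 CPM in P11, 75.3 CPM in P9, 101 CPM in P10 and 69.1 CPM in P12. The part of such overlaps in the carrier values was not tested. Slc25a42 and Slc25a51 hold stretches of at most 159 bases that match other transcripts at 95% identity or more. Slc25a43 and Slc25a53, at or under 5.85 CPM in every library, were called lower in P9 as well. Slc25a46, an outer membrane protein of mitochondrial division, was at 52.3 to 55.2 CPM in P11, 23.1 to 32.7 CPM in P9, 40.9 to 43.6 CPM in P10 and 47.2 to 62.5 CPM in P12, just short of 2-fold (0.96 in P11 against P9).

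**Figure D5:**
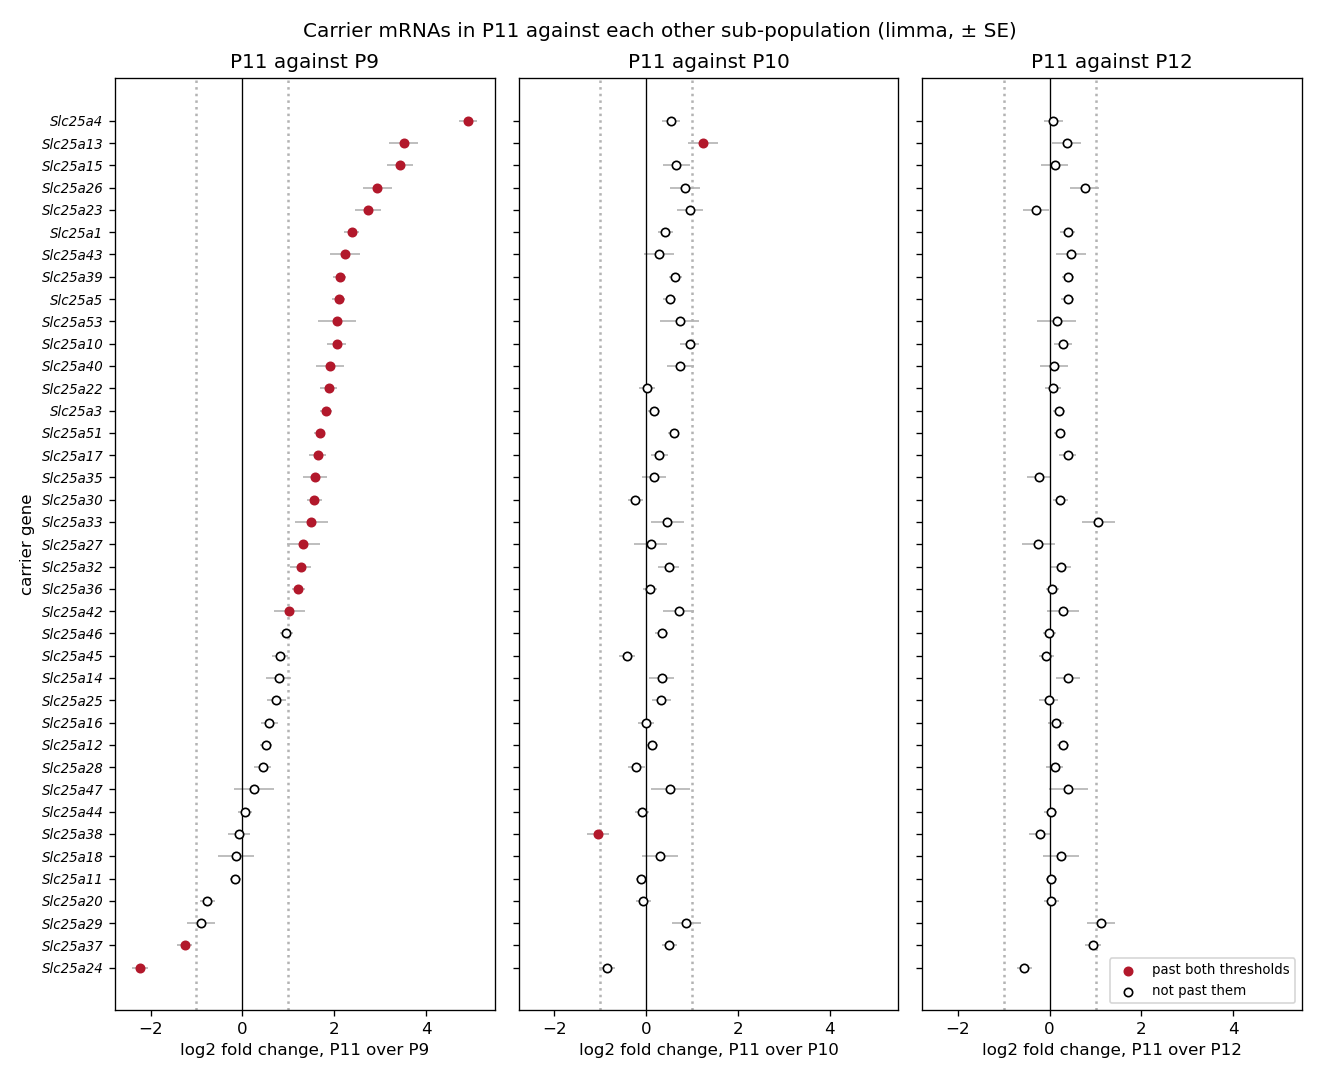
Each row is a tested carrier, ordered by P11 against P9. Points give the log2 fold change of P11 over P9, P10 and P12 from limma, bars the SE, filled points those past both thresholds and dotted lines a 2-fold difference. Filled points run from Slc25a4 (4.92) to Slc25a24 (-2.23) against P9, are Slc25a13 and Slc25a38 against P10, and are absent against P12.

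By their carrier levels P11 lay nearest to P12 on average, and P10 was close behind. The root mean square difference in log2(CPM + 0.5) over the 40 carriers averaged 0.498 between P11 and P12 libraries, 0.612 for P11 with P10 and 1.88 for P11 with P9, against 0.291 among P11 libraries themselves and 0.464 among P12 libraries. Single pairs of libraries overlapped, at 0.345 to 0.741 for P11 with P12 and 0.538 to 0.759 for P11 with P10. P12 replicate 3, which held the most monocyte and macrophage mRNA of its group, was nearer to P10 (0.451) than to P11 (0.634), whereas P12 replicates 1 and 2 were nearer to P11 (0.418 and 0.441) than to P10 (0.56 and 0.60). Per kilobase, Slc25a5 ranked first of the 42 carriers in each sub-population and Slc25a3 second except in P9, where Slc25a24 (57.8 CPM per kilobase) and Slc25a37 (56.0 CPM per kilobase) came before Slc25a3 (47.8 CPM per kilobase). Slc25a24 and Slc25a37 overlapped there (46.9 to 65.8 and 53.1 to 61.6 CPM per kilobase). Slc25a4 ranked 5 in P11 and 29 in P9.

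The import machinery that inserts carriers into the membrane moved in the same direction. Of 15 genes, all tested, 11 were higher and none lower in P11 than in P9, where 46.8% of all genes were higher, with a median of 1.90 on the log2 scale against 0.90 for all genes. Those with the smallest adjusted p were Timm29 of the TIM22 complex (1.90), the TOM channel Tomm40 (2.59), the receptor Tomm20 (2.55) and the small chaperone Timm9 (3.89). Timm9 had 18.1, 19.0 and 15.6 CPM in P11, 0.147, 0.990 and 1.35 CPM in P9, 8.49, 6.95 and 5.15 CPM in P10, and 12.9, 14.9 and 10.1 CPM in P12. P9 was lowest, P10 next, P12 above it and P11 highest, without overlap. Against P10, Agk (1.31), Timm9 (1.32) and Timm8a1 (1.5) were higher in P11 and none lower, where 12.8% of all genes were higher, and against P12 none was called. Against the mean of the 3 others 8 of the 15 were higher, where 19.9% of all genes were.

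The citric acid cycle enzymes, which make or use the substrates of several carriers, had 14 of 18 genes higher and none lower in P11 than in P9 (median 1.37, against 46.8% higher and a median of 0.90 for all genes), and 4 higher than in P10, where 12.8% of all genes were higher. Those 4 were the isocitrate dehydrogenases Idh2 and Idh3a, fumarase Fh1 and the succinyl-CoA ligase subunit Suclg2. Idh2 had 118, 97.6 and 106 CPM in P11, 6.67, 5.28 and 5.67 CPM in P9, 46.4, 43.1 and 38.2 CPM in P10, and 82.9, 83.9 and 65.9 CPM in P12, in the order P9, P10, P12, P11 without overlap. Of the 9 heme synthesis enzymes, which depend on the carriers of iron and glycine, 7 were higher and 2 lower in P11 than in P9, against 46.8% and 11.2% of all genes. Slc25a37 was lower in P11 there, so most of these enzymes, like most called genes of the table, ran opposite to it. Cpox (3.05), Fech (1.63) and Alad (2.67) had the smallest adjusted p, and the 2 lower were Alas2, the erythroid form of the first enzyme, at 1.80 ± 0.642 CPM in P11 and 4.26 ± 1.81 CPM in P9 (SD, n = 3 each), and Ppox (-1.11). Alad alone was called in P11 against P10 (1.56). Of the carrier relatives that bear other names, Mtch1 and Mtch2 were higher in P11 than in P9, and the uncoupling protein Ucp2 was called only in P9 against P10 (-1.09), at 390.0 to 761 CPM in P9 and 987 to 1357 CPM in P10. Ucp3 was too low to test.

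Of the 42 carriers 32 had a RefSeq promoter. In the 250 bases before the start, searched on both strands, the E-box word CACGTG occurred in 5 of the 32 (15.6%, against 8.1% of 10668 protein-coding promoters), the carriers being Slc25a1, Slc25a13, Slc25a14, Slc25a33 and Slc25a36. The ETS word CCGGAAG occurred in 5 (15.6%, against 13.6%), among them Slc25a3 and Slc25a4, and CCAAT in 15 (46.9%, against 36.7%). The GATA word AGATAAG occurred in 1 (3.1%, against 1.8%), the CEBP word TTGCNNAA in 1 (3.1%, against 7.6%), TATAAA in 1 (3.1%, against 6.9%) and the NRF1 palindrome, GCGCA followed by its reverse complement, in none (against 1.5%). The median GC content was 59.2% in both sets. A match describes letters in this window and not a bound site.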

How the data were processed

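RNA of 12 libraries, 3 for each of P11, P9, P10 and P12, was amplified from 100 cells with 14 cDNA and 13 PCR cycles and sequenced as single reads of 61 bases. The authors deposited 1 table of CPM per gene, with 0.0001 added to each value. By the study's methods reads were aligned with STAR and quantified with the Partek E/M algorithm. Without giving their roles, the notes that the submitters filed list the build mm10 and the tools STAR 2.5.3a, Bowtie2, Partek, bcl2fastq 2.17, DESeq and DESeq2 3.5. Sources differ on whether the library kit keeps strand. Genes of the mitochondrial chromosome were not analysed here. Totals were read from the spacing of low values, of which 76.8 to 82.9% lay within 0.1 of a whole number of alignments, too few to recover reads.

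The offset was subtracted and log2(CPM + 0.5) was fitted with limma 3.58.1 (R 4.3.3 with version 1.17.8 of data.table), with 1 mean per sub-population and an intensity trend, for the 13450 genes that reached 1 CPM in 3 or more libraries. Fold changes are on that scale, which understates changes of low genes. P-values were Benjamini-Hochberg adjusted over all genes tested in each of 7 comparisons, with calls at an adjusted p under 0.1 and more than 2-fold. The script was tested on simulated data. Library values are given for carriers called in at least 1 comparison with a group mean of 10 CPM or more, which was 21 carriers, paralogs stand beside them, and other members are given by range. A tested carrier and some genes of the related lists are counted but not reported here by name, in text or figures. From each related list at most 4 called genes with the smallest adjusted p are named, and Ucp2, Mtch1, Mtch2 and Ppox were named after their values were seen. Members and lists were chosen with earlier results of these data known. Alternatives changed the pseudocount, the filter, the scaling (median ratio of genes that no library holds under 10 CPM), the replicate block, the thresholds, the genes tested, the fold, and each library in turn.

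Transcript lengths came from GENCODE M21, whose gene end is 1 base before that of the table for 40 of 42 carriers. Overlaps were taken from the gene spans of the deposited table. BLAST 2.17.0+ gave identities. Promoters came from RefSeq (GRCm38.p6). Figures were drawn with matplotlib 3.10.9, under Python 3.11.15 with numpy 2.4.6 and pandas 2.3.3.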

Additional observations from a re-analysis of the deposited data

Results flagged for a closer look

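Slc25a5-ps, a transcribed pseudogene of Slc25a5 on chromosome 14 that the rule for members leaves out, stood at 43.8 CPM in P12 replicate 1. It was at 6.69 and 6.50 CPM in P12 replicates 2 and 3, and at 2.66 to 16.1 CPM in the 9 libraries of P11, P9 and P10. On the estimated total, a count of 3 alignments is 0.223 CPM in P12 replicate 1. The transcripts are 94.8% identical over 1097 bases, and Slc25a5 was at 255 CPM in that library, against 320.2 and 262 CPM in P12 replicates 2 and 3. A part of shared reads in this value was not tested.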

How the results depend on the processing

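No called value of a named carrier changed direction. Of 67 called values of the 21 carriers under 21 alternatives each, 1361 results stayed called and 46 did not, touching 19 values, most often under rescaling (16). Percentages in parentheses below give the share of all genes called under the same setting. Of the counts of carriers called, P11 against the mean of the 3 others (11, 25.1%) moved to 5 with a pseudocount of 2 (16.5%). After rescaling this count was 6 (20.3%), and with a fold from mean CPM it was 3, with the share given above. It lay at 7 to 13 with 1 library left out (24.0% to 26.3%). P11 against P10 (2, 20.4%) moved to 4 with a pseudocount of 0.1 (21.5%) and 1 with a pseudocount of 2 (14.6%). It lay at 2 to 3 with 1 library left out (19.6% to 21.5%). P10 against P12 (1) moved to 0 with a pseudocount of 2 and 0 with a filter of 10 CPM, which leaves its only called carrier untested, and lay at 1 to 2 with 1 library left out. With 1 library left out, P11 against P9 (26) lay at 25 to 26, P9 against P10 (26) at 24 to 27, P9 against P12 (25) at 24 to 26 and P11 against P12 at 0. With the replicate number as a block, P11 against P12 moved to 1 (Slc25a29, 0.885%) and no other count of carriers changed. By the study the groups came from the same mice, but no label says that a number marks a mouse, and the data leave this unsettled: residuals of same-numbered libraries correlated at -0.02 to 0.53, over 0.1 in 12 of 18 cases, and 10 of 12 libraries correlated best with their own number. Depth limits the 11 tested carriers that averaged under 10 CPM in every group, whose values in P9 rest on few alignments. The cause of these changes was not tested.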

Other observations

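The other solute channels and transporters of mitochondria had calls in both directions, as the table had as a whole. Of 22 genes, all tested, 11 were higher and 3 lower in P11 than in P9, near the 46.8% and 11.2% of all genes, with a median log2 fold change of 1.03 against 0.90 for all genes. The ATP-binding cassette transporter Abcb8 (3.89, adjusted p = 5.2e-09) and the outer membrane channel Vdac1 (1.36) had the smallest adjusted p among the higher ones. The 3 lower genes were the sideroflexin Sfxn5 (-2.87), Mpc2 (-1.43), a subunit of the pyruvate carrier, and Mcu (-1.90), the pore of the calcium uniporter. Mpc2 had 27.9, 24.3 and 26.6 CPM in P11, 70.4, 70.7 and 73.5 CPM in P9, 24.7, 22.8 and 32.3 CPM in P10, and 23.3, 21.6 and 25.9 CPM in P12, so that P9 alone was high, while its partner Mpc1 averaged 38.3 CPM in P11, 39.7 CPM in P9, 27.8 CPM in P10 and 33.1 CPM in P12.

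The uniporter pore and its inhibitory subunit Mcub ran in opposite directions between P9 and P10. Mcub had 6.30, 6.81 and 10.8 CPM in P11, 0.0733, 0.385 and 0.337 CPM in P9, 27.3, 26.9 and 34.8 CPM in P10, and 8.11, 8.16 and 21.9 CPM in P12. P9 was near 0, P10 highest, and P12 replicate 3 lay between P10 and the other P12 libraries. In P9 against P10 the log2 fold change was -5.32 for Mcub (SE 0.36, adjusted p = 6.7e-08) and 2.15 for Mcu. Mcu had 24.6, 24.0 and 45.8 CPM in P11, 101, 119 and 122 CPM in P9, 19.1 to 41.4 CPM in P10, and 17.0, 16.9 and 21.5 CPM in P12, with replicate 3 highest in each sub-population. Sfxn1, a serine transporter, was higher in P11 than in P10 (1.63, adjusted p = 0.00047) and than in P9 (2.41), at 116 to 133 CPM in P11, 17.1 to 33.8 CPM in P9, 35.5 to 42.5 CPM in P10 and 56.5 to 121 CPM in P12. Mcu, Mpc1 and the range of Sfxn1 were singled out after their values were seen, and the neutrophil and monocyte sums that move with these groups are given above.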
